A study of Mus musculus with 8 samples.

Results

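The major histocompatibility complex (MHC) class I heavy chains, their invariant light chain B2m and the transactivator Nlrc5 were examined in haematopoietic stem cells of mice that lack the RNA-editing enzyme ADAR1. The genes were 10 of the 19324 named by the array's annotation: B2m, the classical heavy chains H2-K1 and H2-D1, the Q-region chains H2-Q4 and H2-Q7, the T-region chains H2-T22, H2-T23 and H2-T24, the M-region chain H2-M3, and Nlrc5. Every probe set that the platform's annotation assigns to any of these symbols, alone or together with paralogs, was taken, which gave 27 of 45037 tested probe sets. Of these, 18 name 1 gene and 9 name several. The cells came from fetal liver of C57/B6 mice and were sorted as Lin-Sca+Kit+, and each of the 8 Affymetrix arrays holds the RNA of 1 mouse. The 2 wild-type arrays (WT), the 3 arrays of ADAR1 +/- mice (heterozygous) and the 3 arrays of ADAR1 -/- mice (null) differ in the labels only by this genotype. The wild-type and heterozygous arrays together are called the 5 control arrays. The sources used here do not give the age of the fetuses, their litters or the exons missing from the null allele.

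Class I molecules are made of a heavy chain and B2m, and they carry peptides from inside the cell to the surface of nearly all nucleated cells. H2-K1 and H2-D1 are the classical, polymorphic heavy chains of this strain and are read by CD8 T cells. The Q, T and M regions encode nonclassical chains: H2-T23 (Qa-1) presents leader peptides of other class I chains to natural killer cell receptors, H2-Q7 encodes Qa-2, H2-T22 is bound by some gamma-delta T cell receptors, and H2-M3 presents peptides that begin with formyl-methionine. Nlrc5 enters the nucleus and joins the RFX, CREB and NF-Y proteins bound at the S, X and Y boxes of class I and B2m promoters. Interferons raise class I genes through STAT and interferon regulatory factors and also raise Nlrc5 itself. ADAR1, an enzyme that edits adenosines of double-stranded RNA into inosines, is known to keep cellular RNA from setting off the interferon response.

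Some of these promoter elements were searched for in the RefSeq promoters of build GRCm38.p6, in the 250 bases before each annotated start. Of the 10 genes, 8 were matched to such a promoter. The S box and the sites of RFX proteins were not searched for. Upstream sequences are shown for 3 genes with a probe set past the threshold of the test below, B2m, H2-K1 and H2-T23, and for H2-D1, the other classical chain, which had none. They run 5′ to 3′ on the gene's strand, and capitals mark every match, on either strand, to 6 motifs. Interferon elements were searched in a class I form, GAANNGAAA, and in the usual form of the interferon-stimulated response element, a pair of GAAA with any 2 bases between, which was added after the sequences were seen. The others were TTCNNNGAA (core of the gamma-activated site), TGACG (core of the X2 box), CCAAT (core of the Y box) and a loose form of the NF-kappaB element (GGG, any pair of bases, TT, any base, CC).
B2m, chr2:122147437-122147686, plus strand: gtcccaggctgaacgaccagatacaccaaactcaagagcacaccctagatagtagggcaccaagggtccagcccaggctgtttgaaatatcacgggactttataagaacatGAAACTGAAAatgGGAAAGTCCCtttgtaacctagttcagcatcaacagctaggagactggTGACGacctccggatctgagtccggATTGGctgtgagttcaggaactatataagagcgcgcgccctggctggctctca
H2-K1, chr17:34000334-34000583, minus strand: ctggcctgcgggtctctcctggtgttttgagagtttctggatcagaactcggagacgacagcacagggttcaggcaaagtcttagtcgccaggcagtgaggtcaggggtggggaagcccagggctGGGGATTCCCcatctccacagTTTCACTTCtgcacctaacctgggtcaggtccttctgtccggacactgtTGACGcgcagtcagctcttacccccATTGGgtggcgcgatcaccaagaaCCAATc
H2-D1, chr17:35262844-35263093, plus strand: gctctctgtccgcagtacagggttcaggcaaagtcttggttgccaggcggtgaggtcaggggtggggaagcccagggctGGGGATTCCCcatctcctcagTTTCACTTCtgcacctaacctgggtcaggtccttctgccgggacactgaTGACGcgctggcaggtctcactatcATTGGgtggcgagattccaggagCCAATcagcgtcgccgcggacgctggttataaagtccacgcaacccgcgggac
H2-T23, chr17:36032702-36032951, minus strand: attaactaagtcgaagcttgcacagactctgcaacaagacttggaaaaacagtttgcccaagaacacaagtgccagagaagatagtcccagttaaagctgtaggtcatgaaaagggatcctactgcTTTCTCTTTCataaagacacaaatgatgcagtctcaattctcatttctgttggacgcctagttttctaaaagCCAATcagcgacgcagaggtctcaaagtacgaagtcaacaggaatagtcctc

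H2-K1 and H2-D1 held the same motifs in the same order: an NF-kappaB element (GGGGATTCCC in both), the class I form of the interferon element (TTTCACTTC in both, the reverse strand of the motif), TGACG and a pair of CCAAT matches. In the H2-K1 sequence shown they began 125, 104, 55, 30 and 6 bases before the annotated start, and in H2-D1 171, 150, 101, 76 and 53 bases before it. A further RefSeq start of H2-K1 gives an overlapping window, chr17:34000348-34000597. B2m had the paired GAAA form (GAAACTGAAA) next to an NF-kappaB element, then TGACG and CCAAT. H2-T23 had the paired GAAA form (TTTCTCTTTC, its reverse strand) and CCAAT. Shares below are of all 27025 genes with promoter windows of this length (32851 windows), a gene counting where any of its windows matched. The paired form was found in 3 of the 8 matched genes (B2m, H2-T22 and H2-T23) and in 3.46% of all genes. The class I form was found in the other 5 (H2-K1, H2-D1, H2-Q4, H2-Q7 and H2-M3) and in 7.3% of all genes. TGACG was found in 7 of 8 genes, all but H2-T23, against 19.8% of all genes. In H2-Q4 and H2-M3 it lay after the first CCAAT match and in H2-T22 after every one, whereas in H2-K1 and H2-D1 it lay before them. Whether each match is part of an X2 box was not tested. CCAAT was found in all 8 against 37.5% of all genes, and the loose NF-kappaB form in 5 of 8 against 4.71%. The gamma-activated site was found in H2-M3 alone, against 8.13% of all genes. In H2-Q4 a pair of NF-kappaB matches overlap each other. These class I promoters are paralogs and their matches are not independent of each other; a match describes letters and not a bound site.

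**Figure D1:**
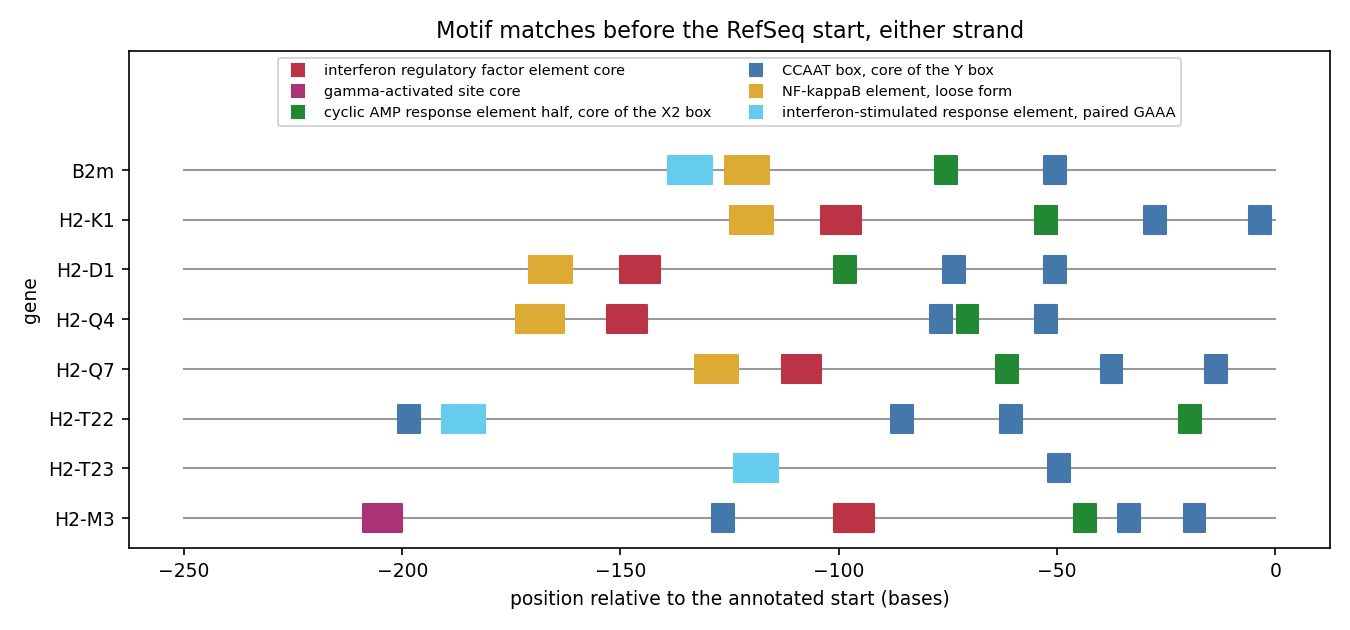
Positions of the 6 motifs in the 250 bases before the annotated start of the 8 genes with a RefSeq promoter (x axis, bases; 1 row per gene; matches on either strand; for H2-K1 the window printed above). H2-K1, H2-D1 and H2-Q7 show the order NF-kappaB, interferon element, X2 and Y box cores, and each of the 8 genes shows 1 of the 2 interferon element forms.

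The values are linear intensities per probe set as the authors deposited them, and differences are given in log2 units with the standard error from limma, a linear model fitted over all 45037 probe sets. Adjusted p-values are Benjamini-Hochberg values over all of these, and a probe set is called where the adjusted p is under 0.05. A probe set on an array counts as at background where it reads no more than the brightest of 27 control probe sets for Bacillus transcripts, 6.20 to 9.29 linear units over the 8 arrays. Intensities of different probe sets are not comparable with each other. The mean log2 intensity of spike-in controls was 11.87, 11.33 and 12.01 on null arrays 1, 2 and 3 and lay between 10.95 and 11.54 in the control group, and 40.0% to 46.4% of probe sets were above background on null arrays against 45.6% to 61.2% on control arrays; the part of this in the results was not tested. In the sorted cells Kit read 11.7 to 23.5 on control and 9.33 to 13.3 on null arrays, little above background, Cd34 read 13.8 to 25.7 and 17.8 to 32.2, and the stem cell factor Gata2 306 to 432 and 70.3 to 644. Of 3 probe sets for Adar, the targeted gene, 1 lay near background, another read 6.02 to 13.5 on control and 7.61 to 17.3 on null arrays, and the third read 7.66 to 17.6 on control arrays and 59.75, 144 and 176 on null arrays (3.22 ± 0.41 log2 units; limma, adjusted p = 0.0171). Which exons the null allele lacks, and so whether these probe sets lie in the deleted part, the sources do not say; they do not check the genotypes, which are used as labelled. Sca-1 (Ly6a) has no probe set of its own in the annotation and was not measured.

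On their brightest probe sets, B2m, H2-K1, H2-T23, H2-T24 and Nlrc5 were higher in null cells by 2.39 to 4.43 log2 units. H2-D1, H2-T22, H2-M3 and the Q-region chains were not called. Other probe sets of H2-K1 gave smaller differences, listed below. Of the 27 probe sets, 7 were called higher in null than in the 5 control arrays and 0 lower, where 0.329% of all tested probe sets were called higher and 0.253% lower. The 7 belong to B2m (both of its probe sets), H2-K1 (2 probe sets), H2-T23, H2-T24 and Nlrc5. Before adjustment, 18 of the 27 were higher at p under 0.05 and 0 lower, against 4.86% and 6.66% of all probe sets. In 16 of the 27 every null array read above every control array, and in 0 below, which held for 3.89% and 4.30% of all tested probe sets. The median difference was 0.96 log2 units over the 27 probe sets, against 0.04 over all probe sets. Over the brightest probe set of each of the 10 genes it was 2.52. Brightness was taken over null and control arrays together, which favours probe sets that are high in null cells. The value over all probe sets was not picked in that way, so the 2.52 has no like value beside it. The count of 7 was 4 without wild-type array 1, heterozygous array 2 or heterozygous array 3, and 3 without null array 1. In bulk RNA, more cells of a type and more RNA per cell cannot be told apart.

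**Figure D2:**
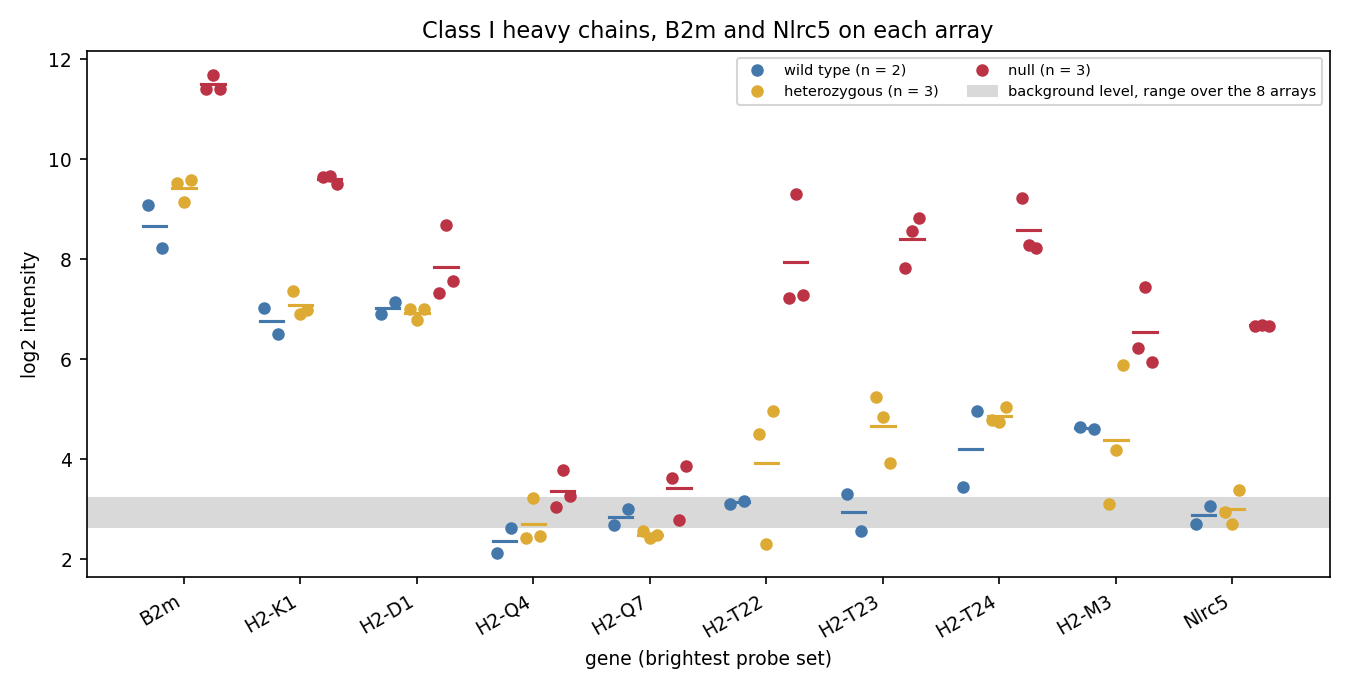
Log2 intensity (y axis) of the brightest probe set of each gene on each array; points are mice (2 wild type, 3 heterozygous, 3 null), bars are group means and the grey band is the range of the background level over the 8 arrays. Null points lie above all control points for 8 of the 10 genes and overlap them for H2-Q4 and H2-Q7; heights are not comparable between genes.

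B2m, the light chain that every class I heavy chain needs for stable surface expression, was read by a pair of probe sets that gave nearly the same change. The brighter read 540 and 299 linear units on the wild-type arrays, 734, 563 and 765 on the heterozygous arrays, and 2706, 3296 and 2703 on the null arrays. All null arrays were far above all controls, and all 3 heterozygous arrays were above both wild-type arrays. Heterozygous against wild type was not called (limma, adjusted p = 0.891). Null exceeded wild type 7.19-fold (2.85 ± 0.28 log2 units, SE; limma, adjusted p = 0.0165), heterozygous 4.24-fold (2.08 ± 0.25, 0.0287) and all controls 5.24-fold (2.39 ± 0.30, 0.0167). The other probe set read 171 and 95.7, then 223, 203 and 233, then 735, 1326 and 733 in the same order of groups. Its differences were 2.80 ± 0.34 against wild type (limma, adjusted p = 0.0373), 2.03 ± 0.31 against heterozygous (0.0628, not called) and 2.34 ± 0.34 against all controls (0.0318). The call of the brighter probe set against all controls was lost without wild-type array 1, heterozygous array 2 or null array 1 (limma, adjusted p 0.0502 to 0.0573), and over alternatives it ran from 0.00489 to 0.0573. Against wild type it was lost without heterozygous array 1 or 3 or without the whole heterozygous group (0.188), and against heterozygous without each heterozygous array, null array 1 or null array 3, with adjusted p up to 0.126.

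H2-K1, a classical heavy chain, was represented by 6 probe sets, and in the 4 that were above background on every array all null arrays read above all controls. The brightest of those naming H2-K1 alone, over all 8 arrays, read 130 and 91.1 in wild type, 164, 119 and 126 in heterozygous and 794, 807 and 724 in null cells. The null arrays were close together and all far above the controls, whose groups overlap each other. It rose 7.13-fold against wild type (2.83 ± 0.21 log2 units, SE; limma, adjusted p = 0.00605), 5.74-fold against heterozygous (2.52 ± 0.19, 0.00484) and 6.26-fold against all controls (2.65 ± 0.18, 0.000795). The last of these calls held in all 14 alternatives, with adjusted p from 0.000344 to 0.00551, and the call against wild type was lost without the heterozygous group (0.103). A dimmer probe set for H2-K1 read 26.9 and 26.4 in wild type, 23.05, 19.0 and 22.7 in heterozygous and 80.7, 108 and 54.6 in null cells. It was higher than in all controls by 1.73 ± 0.23 (limma, adjusted p = 0.0190) and than in heterozygous by 1.86 ± 0.25 (0.0395), and its difference from wild type, 1.55 ± 0.28, did not pass (0.139). On the control arrays alone another probe set naming only H2-K1 was brighter, with a mean log2 intensity of 7.22 against 6.95. It read 169 and 124 in wild type, 158, 132 and 171 in heterozygous and 242, 538 and 268 in null cells, a difference from all controls of 1.13 ± 0.27 that was not called (limma, adjusted p = 0.165). A probe set naming both H2-K1 and H2-D1 differed by 1.49 ± 0.25 (0.0573). The other 2 H2-K1 probe sets read 5.52 to 9.09 over all arrays, near background, and differed from controls by 0.19 ± 0.17 and -0.06 ± 0.10.

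H2-D1, the other classical heavy chain, had 11 probe sets, more than any other of these genes, and none was called in any comparison. The brightest of those naming it alone read 119 and 140 in wild type, 128, 110 and 128 in heterozygous and 159, 408 and 188 in null cells. Null array 2 stood well above the other null arrays, and the lowest null array was only slightly above the highest control. The difference from all controls was 0.89 ± 0.29 log2 units, 1.85-fold (limma, adjusted p = 0.316, unadjusted p = 0.0165), and 0.83 ± 0.39 and 0.92 ± 0.35 from wild type and heterozygous (0.700 and 0.407). A probe set of H2-D1 without the suffix that marks possible cross-hybridisation read 43.6 and 29.3, then 60.6, 15.6 and 60.04, then 220, 217 and 64.1. It differed from all controls by 1.96 ± 0.58 (limma, adjusted p = 0.263), with null array 3 near the highest heterozygous values. A dimmer one, also without that suffix and naming H2-D1 alone, read 9.31 and 11.4, then 10.4, 8.11 and 9.31, then 6.57, 8.34 and 12.8. Its difference from all controls was -0.12 ± 0.22 (limma, adjusted p = 0.618). A probe set with the suffix, naming H2-D1 alone, read 108 and 87.4, then 96.6, 97.2 and 112, then 145, 318 and 158. It differed by 0.96 ± 0.26 (0.217). Over all 11 the difference from all controls ran from -0.24 to 1.96 with a median of 0.69. The 7 H2-D1 probe sets that were at background on some array read at most 21.0 units on any.

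The changes of H2-K1 and H2-D1 overlapped across probe sets. Among those above background on all 8 arrays, the difference from all controls ran from 1.13 to 2.65 over 4 probe sets of H2-K1 and from 0.89 to 1.96 over 4 of H2-D1, with 1 probe set counted in both. Only the H2-K1 value of 2.65 lay above the H2-D1 range. Of these 16 probe sets 12 carry the array's suffix for probes that may bind related transcripts, and H2-K1, H2-D1 and the Q-region chains are close paralogs, so the share of each gene in such a signal was not tested. Among the 8 of the 16 that were above background on all null arrays, 7 were highest on null array 2 and 1 on null array 1.

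**Figure D3:**
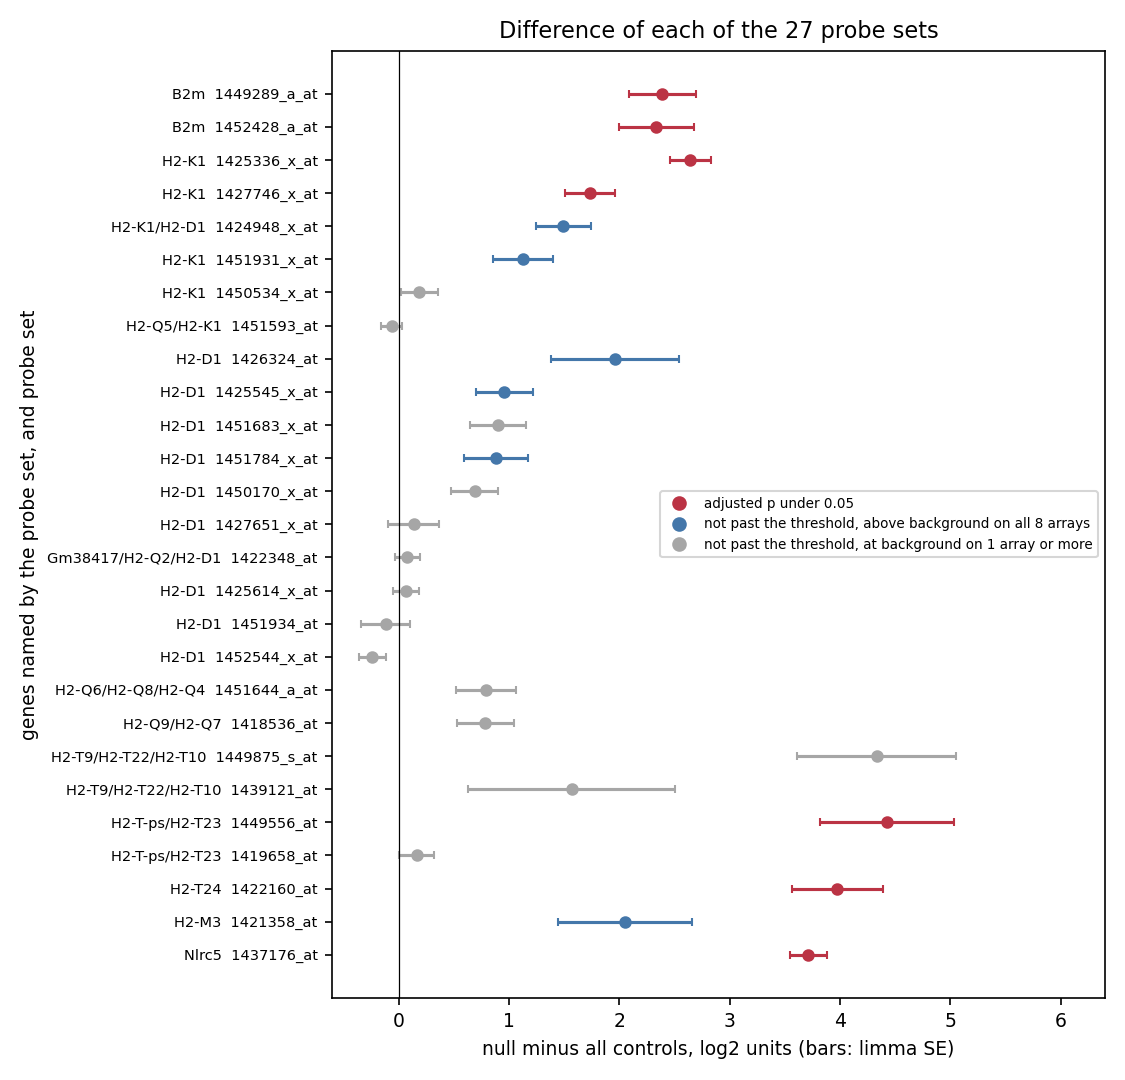
Difference between null and all controls in log2 units (x axis; points are limma estimates, bars their SE) for each of the 27 probe sets, grouped by gene (y axis). The 7 called probe sets belong to B2m, H2-K1, H2-T23, H2-T24 and Nlrc5, and the uncalled H2-D1 differences run from -0.24 to 1.96.

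Among the nonclassical chains, T-region genes had the larger differences. H2-T23, which encodes Qa-1, shares its probe sets with the pseudogene-named H2-T-ps. The brighter read 9.83 and 5.93 in wild type, 37.7, 28.6 and 15.2 in heterozygous and 227, 377 and 451 in null cells. The 3 groups did not overlap: wild type was at or near background, heterozygous was intermediate and null was high. Heterozygous against wild type was not called (limma, adjusted p = 0.843). In 11.4% of all tested probe sets, all heterozygous arrays lay above both wild-type arrays. Null exceeded wild type by 5.47 ± 0.47 log2 units of deposited intensity (limma, adjusted p = 0.00994), heterozygous by 3.73 ± 0.42, 13.3-fold (0.0223), and all controls by 4.43 ± 0.61 (0.0241). Only 1 of 2 wild-type arrays was above background, so no fold is given where they enter; with a pseudocount of 32 the difference from wild type was 3.22 and still called (0.0339). The call against all controls was lost with array weights and without wild-type array 1, heterozygous array 3, null array 1 or null array 3 (limma, adjusted p 0.0514 to 0.0810, and from 0.00919 to 0.0810 over alternatives). Against heterozygous it was lost without each heterozygous array or null array 3, with adjusted p up to 0.0991, and against wild type without the heterozygous group (0.0970). The second H2-T23 probe set read 5.35 to 7.92 over all arrays and differed from controls by 0.16 ± 0.16.

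H2-T24, a T-region chain with a probe set of its own, read 10.9 and 31.0 in wild type, 27.6, 26.8 and 33.1 in heterozygous and 594, 310 and 299 in null cells. Wild-type array 1 was the low value among the controls, and null array 1 the high value among the null arrays. It rose 20.7-fold against wild type (4.37 ± 0.49 log2 units, SE; limma, adjusted p = 0.0254), 13.1-fold against heterozygous (3.71 ± 0.44, 0.0261) and 15.8-fold against all controls (3.98 ± 0.41, 0.00588). The call against all controls held in all 14 alternatives (limma, adjusted p 0.00241 to 0.0258). Those against wild type and heterozygous were lost without any 1 of the heterozygous arrays or null array 1 (up to 0.130), and the first also with a pseudocount of 32 (0.0574) or without the heterozygous group (0.280).

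H2-T22 was read by probe sets that also name H2-T9 and H2-T10, and their differences were large but uneven. The brighter read 8.64 and 8.96 in wild type, 22.7, 4.93 and 30.9 in heterozygous and 150, 630 and 156 in null cells. All null arrays were above all controls, with null array 2 highest and heterozygous array 2 lowest. Heterozygous array 2 was at background. The difference was 4.33 ± 0.72 log2 units against all controls and did not pass (limma, adjusted p = 0.0555, unadjusted p = 0.000364). It passed with quantile normalization (0.0318), with probe sets above the median level only (0.0242) and with an intensity trend in the variance (0.0278), over alternatives from 0.0242 to 0.176. Against wild type it was 4.80 ± 0.92 (0.167) and against heterozygous 4.02 ± 0.83 (0.147). The second probe set was high on null array 1 alone, at 130 units, and read 5.31 to 6.35 on the other 7 arrays, so its difference of 1.57 ± 0.94 rested on that array.

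H2-M3 read 24.9 and 24.4 in wild type, 8.53, 18.2 and 58.8 in heterozygous and 74.8, 174 and 61.2 in null cells. The null arrays were above the controls, narrowly so for null array 3 against heterozygous array 3. The difference from all controls was 2.05 ± 0.61 log2 units, 4.15-fold (limma, adjusted p = 0.263, unadjusted p = 0.0101). The Q-region chains were near background. H2-Q7, whose probe set also names H2-Q9, read 6.42 and 8.06, then 5.88, 5.38 and 5.60, then 12.4, 6.84 and 14.4, and was at background on all 5 control arrays. Its null mean was at least 1.53-fold above the background of the controls (0.79 ± 0.26; limma, adjusted p = 0.318); without null array 2, which was at background, the difference was 1.11 and passed (0.0433). H2-Q4, on a probe set that also names H2-Q6 and H2-Q8, read 4.34 and 6.14, then 5.38, 9.36 and 5.52, then 8.22, 13.8 and 9.58, with heterozygous array 2 inside the null range (0.79 ± 0.27, 0.336).

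Nlrc5, the transactivator of class I genes, had the least spread among null mice of the 10 genes. It read 6.54 and 8.30 in wild type, 7.69, 6.51 and 10.4 in heterozygous and 102, 103 and 102 in null cells. The control values lay around background (3 of 5 arrays above it), and the null arrays lay within 0.02 log2 units. Null exceeded wild type by 3.79 ± 0.22 log2 units of deposited intensity (limma, adjusted p = 0.00257), heterozygous by 3.66 ± 0.20 (0.00153) and all controls by 3.71 ± 0.17 (0.000135). Since 1 of 2 wild-type and 2 of 3 heterozygous arrays were above background, no fold is given. The call against all controls held in all 14 alternatives (8.34e-06 to 0.00143), and with a pseudocount of 32 the differences from wild type, heterozygous and all controls were 1.77, 1.74 and 1.75. With the arrays of null and wild type alone the call against wild type was lost (0.0540).

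The separate comparisons with wild type and with heterozygous share the null arrays and their values are given side by side. Against wild type 6 of the 27 probe sets were called higher and 0 lower (limma), where 0.220% and 0.107% of all tested probe sets were. Against heterozygous 6 were called higher and 0 lower, where 0.262% and 0.240% were. The median difference over the 27 was 0.997 against wild type and 0.93 against heterozygous, and 0.01 and 0.07 over all probe sets. Before adjustment, 15 were higher at p under 0.05 against wild type and 17 against heterozygous, and 0 lower in either, where 2.63% and 4.52% of all probe sets were higher and 5.0% and 6.81% lower. All null arrays read above both wild-type arrays in 19 probe sets and above all heterozygous arrays in 17, and below them in 1 and 0, where 9.20% and 12.2% of all probe sets lay above and 10.4% and 9.28% below. The count against wild type was 3 without heterozygous array 1 or 3 (the 3 groups share 1 estimate of the spread) and 0 with the arrays of null and wild type alone. The count against heterozygous was 2 without any 1 of the heterozygous arrays and 3 without null array 1.

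Loss of 1 ADAR1 copy was examined in heterozygous against wild type. Of the 27 probe sets limma called 0 higher and 0 lower, where 0% and 0.00222% of all tested probe sets were called. Before adjustment, 2 were higher at p under 0.05 and 0 lower, against 2.59% and 2.78% of all probe sets. They were the brighter probe sets of H2-T23 (1.73 ± 0.47 log2 units, adjusted p = 0.843, unadjusted p = 0.0084) and B2m (0.76 ± 0.28, 0.891 and 0.0315). The second B2m probe set differed by 0.78 ± 0.34 (0.891). In 5 probe sets all heterozygous arrays were above both wild-type arrays, among them the brighter H2-T23 and both of B2m, and in 3 they were all below, where 11.4% and 17.8% of all probe sets did so. Nlrc5 and H2-K1 differed by 0.13 ± 0.22 and 0.31 ± 0.21 (limma, adjusted p = 0.957 and 0.898).

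Arrays within a group did not rank the genes alike. Among null arrays, 7 of the 10 genes were highest on null array 2, 2 on null array 3 (H2-T23 and H2-Q7) and 1 on null array 1 (H2-T24). The spread of null arrays was 0.02 log2 units for Nlrc5, 0.16 for H2-K1 and 0.29 for B2m, and 0.75 to 2.07 for the other 7 genes. Among control arrays, 5 genes were highest on heterozygous array 3, which had the largest Gapdh 3′ to 5′ ratio (8.996 against 4.32 to 5.78 on the other controls); the part of that in these values was not tested. The null arrays had ratios of 7.45 to 8.73.

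Genes whose profile over the 8 arrays was nearest to that of B2m, H2-K1 or Nlrc5 were found by the root mean square difference of log2 values, each taken relative to its control mean. Nearest to B2m were 2410006H16Rik (0.28), Ncstn (0.38), a subunit of gamma-secretase, and Ddit3 (0.41), the stress-induced factor CHOP. H2-K1, on its brightest probe set over all arrays, stood 0.28 from B2m, so that only 2410006H16Rik was closer. No distance was taken for the other H2-K1 probe sets, whose differences from controls were smaller. Nearest to H2-K1, on its brightest probe set over all arrays, were Parp11 (0.25), Eif2ak2 (0.29), the kinase PKR that binds double-stranded RNA, and Ncstn (0.29). Nearest to Nlrc5 were Stat2 (0.31), a transducer of type I interferon signals, Ifitm3 (0.34), which blocks viral entry, and Slfn2 (0.37). Stat2 read 5.79 to 9.85 on control arrays and 127, 135 and 99.8 on null arrays. No test was made of these distances over 8 arrays.

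Partners of class I molecules in antigen presentation were set beside them. Of 12 measured partners, 2 were called higher and 0 lower in null against all controls (limma): the immunoproteasome subunit Psmb9 (6.38 ± 0.62 log2 units, adjusted p = 0.00436) and the peptide transporter Tap1 (2.86 ± 0.37, 0.0173). Of all tested probe sets, 0.329% were called higher and 0.253% lower. Psmb8, another immunoproteasome subunit, and Tapbp (tapasin, which holds class I molecules at the transporter) differed by 3.91 ± 0.67 (0.0609) and 3.77 ± 0.63 (0.0559). Before adjustment, 7 of the 12 partners were higher at p under 0.05 and 2 lower, against 4.86% and 6.66% of all tested probe sets. The 2 lower were the general chaperones Calr (-0.96 ± 0.31, limma adjusted p = 0.314) and Pdia3 (-0.76 ± 0.29, 0.387), named here after their values were seen. The median over the partners was 0.69. The call of Psmb9 held without any 1 array (limma, adjusted p up to 0.0219), and that of Tap1 was lost without any 1 of the heterozygous arrays or null array 1 (up to 0.0662). Tap1 was called against neither wild type (2.70 ± 0.48, 0.134) nor heterozygous alone (2.96 ± 0.43, 0.0538).

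Of all tested probe sets, 0.329% were called higher in null against all controls and 0.253% lower. Of 17 measured transcription factors that act on class I promoters, 4 were called higher and 0 lower. They were Irf7 (5.51 ± 0.37 log2 units; limma, adjusted p = 0.000619), Stat2 (3.94 ± 0.20, 0.000166), Irf1 (3.58 ± 0.38, 0.00728) and Irf9 (2.91 ± 0.32, 0.00849), all regulators of interferon responses, and these 4 calls held without any 1 array (up to 0.0357). The proteins that Nlrc5 joins at the promoter were not called: Rfx5 differed by -0.05 ± 0.31, Rfxap by -0.84 ± 0.45, Rfxank by 0.54 ± 0.39, Creb1 by 0.37 ± 0.30, and Nfya, Nfyb and Nfyc by -0.22 ± 0.63, -0.21 ± 0.49 and -0.85 ± 0.28. The directions of Rfx5, Nfya and Nfyb turned without single arrays. The median of the list was -0.05. Irf3, named here after its values were seen, read 86.1 to 179 on control arrays and 34.5 to 60.3 on null arrays (-1.42 ± 0.29, limma adjusted p = 0.105).

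Other class I and class I-like heavy chains, with 16 measured, had 0 called by limma. Before adjustment, 1 of them was higher and 0 lower at p under 0.05, against 4.86% and 6.66% of all tested probe sets. The median of the 16 was 0.13. Most signal was low: 4 of the 16 were at background on all 8 arrays. The 16 summed to 157 to 173 units on control arrays and 159 to 318 on null arrays. A further 19 genes of the list had no probe set naming them alone and were not measured. Cd1d2, a lipid-presenting molecule, read 163 on null array 2, 8.95 and 6.71 on the other null arrays and 7.54 to 21.3 on controls. Its difference of 0.92 ± 1.003 log2 units rested on that array and was -0.54 without it. The next in size were H2-Bl (0.36 ± 0.19), Fcgrt, the neonatal Fc receptor (-0.35 ± 0.24), and H2-T3 (0.33 ± 0.18). MHC class II genes and their transactivator Ciita, which serve the other branch of antigen presentation, had 0 of 10 called by limma and 0 at p under 0.05 before adjustment, with a median of 0.13. These 10 class II genes were read by 1 probe set each, and none of those read above 18.3 units on any array. H2-DMb1 had no probe set naming it alone and was not measured. The largest differences were H2-DMb2 (0.30 ± 0.31), H2-Ab1 (-0.30 ± 0.41), H2-Ob (0.28 ± 0.28) and Ciita (0.26 ± 0.18), with adjusted p of 0.604 to 0.795. Without null array 1, H2-DMb2 and H2-Ob stood at -0.12 and -0.12, and without heterozygous array 3 H2-Ab1 stood at 0.03.

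**Figure D4:**
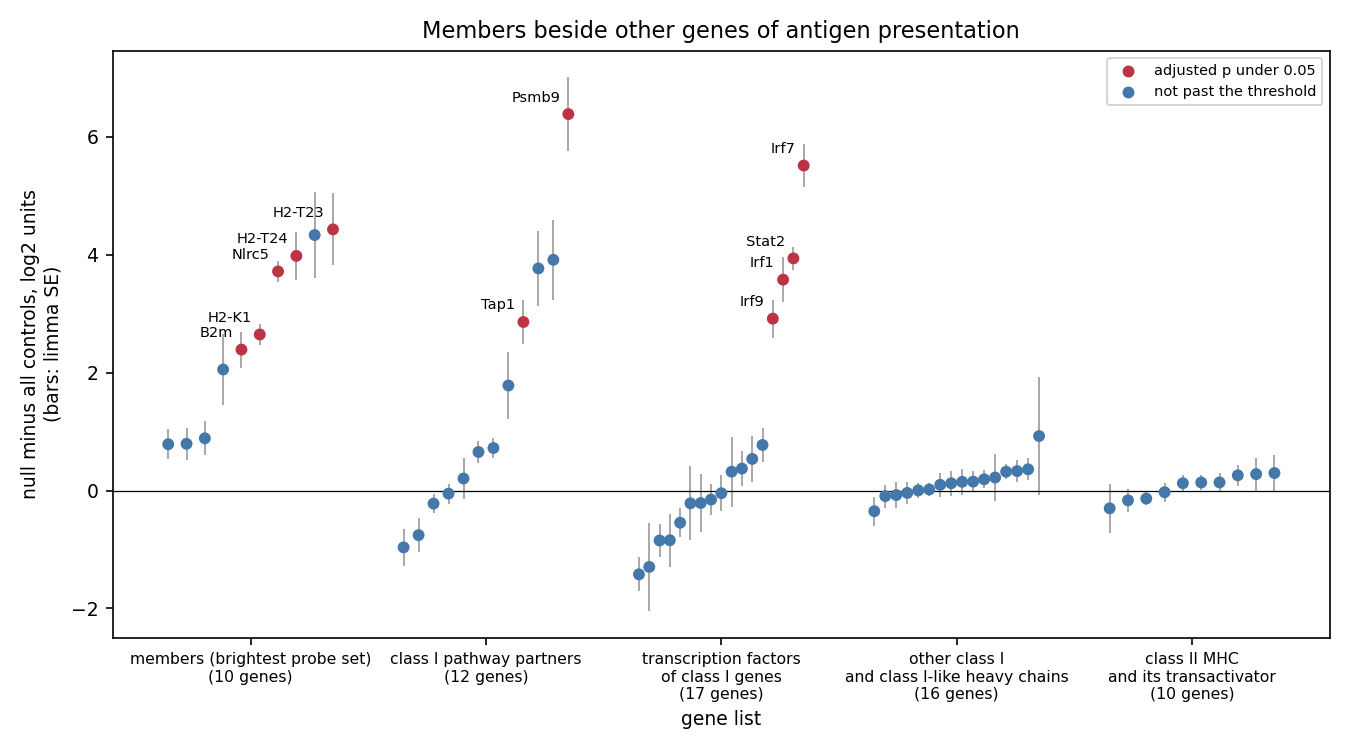
Difference between null and all controls in log2 units (y axis; points are genes, bars limma SE) for the 10 class I genes, B2m and Nlrc5 included, and 4 lists of other antigen presentation genes. Called genes, in red, are named; all 10 of the former lie above 0, and the class II genes lie between -0.30 and 0.30.

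Markers of other cells that the sort could hold were read on the same arrays. The summed intensity of 14 macrophage markers was 218 to 757 on control arrays and 116 to 132 on null arrays. Of the 14, limma called 1 (Slc40a1) lower (not without heterozygous array 3 or null array 1) and 0 higher. Of all tested probe sets, 0.253% were called lower and 0.329% higher. Adgre1 (F4/80) was at background on all 8 arrays, and the median difference over the list was -0.42. The 13 lymphocyte markers summed to 123 to 145 and 141 to 157, with the T cell genes Cd3d and Cd3g and the natural killer gene Ncr1 at background on every array. Without Bst2, itself induced by interferon and left out after its values were seen, 6 dendritic cell markers summed to 47.9 to 56.03 and 53.8 to 69.7, with Xcr1 at background throughout. With Bst2, which read 10.7 to 39.2 on control and 1012 to 2866 on null arrays, 7 summed to 58.6 to 92.4 and 1066 to 2935. Hepatocyte and hepatoblast markers (10 measured) summed to 218 to 1130 on control and 79.2 to 100 on null arrays, with 1 called lower (Afp, a call lost without 6 of the 8 arrays in turn) and 0 higher. The 9 endothelial and stromal markers summed to 146 to 251 and 202 to 457, the 6 erythroid markers to 362 to 557 and 449 to 481, and the 14 stem and progenitor genes to 2458 to 3067 and 1995 to 3127. The part of these cells in the class I values was not tested.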

How the data were processed

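RNA of sorted cells from 8 mice was extracted with a Qiagen kit and biotin-labelled with a Nugen kit, per the labels. The authors deposited 1 linear intensity per probe set and array, made with RMA per the submitters' processing notes; no source used here names its software or version. No per-sample column was left unused (0). Log2 of the deposited intensity was taken with no further normalization. The upper quartile of log2 intensity over the tested probe sets was 3.98, 4.40 and 4.01 on null arrays 1, 2 and 3. It lay between 4.20 and 4.51 on control arrays, so the deposited arrays did not share a common distribution. Quantile normalization was among the alternatives tried. Of the probe sets, 45037 that are not array controls were tested with limma 3.58.1 on R 4.3.3 (lmFit, eBayes; two-sided; Benjamini-Hochberg over all; threshold 0.05). A model of 3 groups (5 residual degrees of freedom) gave null against wild type, null against heterozygous and heterozygous against wild type, and a model of 2 groups (6) gave null against all controls. All p-values come from the deposited intensities; the fitting script was separately tested on simulated data with known shifts. The annotation names 1 gene for 34945 probe sets, several for 932 and none for 9160. The probe set with the highest mean log2 intensity over all 8 arrays, null arrays included, stands for its gene. It was picked among those naming the gene alone where there is one. All probe sets of the class I genes were used; of each other list, up to 4 genes with the largest absolute difference between null and all controls are named, and the 3 nearest genes to B2m, H2-K1 and Nlrc5. The genes, lists and rules were chosen with earlier results of these data known. Replicate numbers follow the order of deposit and pair no arrays. A fold is given as "at least" where the dimmer group was at background on all its arrays, against that background. The number of arrays limits the precision. Promoter motifs were searched on both strands of RefSeq windows with Python 3.11.15. The alternatives tried were quantile normalization, a pseudocount of 32, a filter on dim probe sets, array weights, a variance trend, fewer groups in the fit, 1 probe set per gene, probe sets naming 1 gene only, and leaving out each array in turn.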

Additional observations from a re-analysis of the deposited data

Results flagged for a closer look

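Over the 5 control arrays, 1 of the 27 probe sets had an array that stood far from the others. The probe set of H2-T24 read 10.9 on wild-type array 1 and 26.8 to 33.1 on the other control arrays, while the background of that array was 7.09. The gap to the nearest array was 0.811 of the range, above Dixon's critical value of 0.71 for 5 samples. At a level of 95% some of 27 such groups are expected to pass by chance. Without that array the difference between null and all controls was still called.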

How the results depend on the processing

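Counts of called class I probe sets moved more than single genes did. Against all controls the count of 7 lay between 3 and 9 without single arrays, and was 4 with 1 probe set per gene, where only 6 class I probe sets are left to test. Against wild type the count of 6 lay between 3 and 7 without single arrays and was 0 with the arrays of the compared groups only. Against heterozygous the count of 6 lay between 2 and 8 without single arrays. The cause was not tested. For heterozygous against wild type limma called 0 in each alternative run. Of 425 values of single genes in comparisons with null, 387 kept direction and side of the threshold, 33 kept direction but were no longer called, 5 were newly called and 0 changed direction. Direction changed for 6 uncalled differences between heterozygous and wild type, 5 of them without single arrays. Without single arrays H2-D1 ran from -0.2101 to 0.0319, H2-T24 from -0.0961 to 1.4182, H2-M3 from -0.9846 to 0.4081 and Nlrc5 from -0.0598 to 0.2981. With a pseudocount of 32 H2-M3 was at 0.0075. Where wild type was left with 1 array, that array is assumed to vary like the other groups. H2-Q4, H2-Q7, H2-T22 and H2-T23 have no value with 1 probe set per gene, since theirs name several genes, and H2-Q4 has none under the filter. The GAAA form of the interferon element and the values of list genes without single arrays were chosen after seeing the data. No paired analysis was possible because the labels give no replicate numbers shared between groups. Signal near background limits H2-Q4, H2-Q7 and the control level of Nlrc5; for dim genes, a pseudocount of 32 makes differences smaller.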
